A study of Rattus norvegicus with 6 samples.

Results

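The cluster of miR-290 to miR-295 is a run of rodent microRNA (miRNA) genes known from embryonic stem cells and the early embryo. Its members were taken by name, as every rat miRNA on the array that is miR-290 or an arm of miR-291a, miR-291b, miR-292, miR-293, miR-294 or miR-295. This gave 11 of the 719 rat miRNAs on the array, measured by 28 of its 1730 probes. The cluster was selected on the processed signal and detection calls of miR-290 on these same arrays, so those values are given as a description with no test. The cells were rat primary skeletal muscle cells (RSkMC), isolated from limb muscle of newborn rats and bought frozen from a culture collection, with no strain or genotype given in the labels. Both groups spent 11 days in differentiation medium with 2% horse serum. One group had no agent (control, n = 3 samples), and the other had recombinant interleukin-8 (IL-8), known as an inflammatory chemokine, at 1 ng/ml (n = 3 samples). Each sample had its own 1-colour Agilent array, so the spread given below is between arrays, and nothing in the labels tells whether separate cultures were used. The growth protocol in the labels names IL-8 for all samples, and the groups follow the sample titles. The question asked here is which miRNAs of the cluster gave signal in these cultures, whether neighbours behaved alike, and how the signal differed between control and IL-8.

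As background, the cluster is transcribed as a single long precursor that is cut into hairpins, and each hairpin can give a mature miRNA from its 5p and its 3p side. In pluripotent cells several of the 3p arms carry a seed that holds AAGUGC, the part of a miRNA that pairs with its targets, and these arms shorten the passage from G1 into S phase. The 5p arms are built on a different seed and are less well understood. The cluster is known to be silenced as embryonic cells differentiate, and it is not among the miRNAs by which muscle cells are known.

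All 11 members were matched by name to RefSeq mature sequences on GRCr8, the rat assembly of that table. Of these members, 3 shared the seed CUCAAAC (bases 2 to 8, in capitals below) on their 5p side, and no other rat miRNA in the table had it. They are shown because all 3 begin alike and only the first of them gave signal. The probes of miR-290 pair from its base 4 or base 3 to its last base, and so with most of the seed too.
rno-miR-290: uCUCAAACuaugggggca
rno-miR-292-5p: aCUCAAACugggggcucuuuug
rno-miR-293-5p: aCUCAAACugugugacacuuu
The 5p arm of miR-295, with the seed CUCAAAU, and both arms with a seed of the AAGUGC kind are shown for comparison.
rno-miR-295-5p: aCUCAAAUguggggcacacuucu
rno-miR-291a-3p: aAAGUGCUuccacuuugugugcc
rno-miR-291b: aAAGUGCAuccauuuuguuagu
On GRCr8, miR-290 lies on the minus strand at chr1:74880106-74880123, and its hairpin gene Mir290 spans chr1:74880055-74880135. The hairpin follows with the annotated mature stretch in capitals, which takes bases 13 to 30 of its 81.
Mir290: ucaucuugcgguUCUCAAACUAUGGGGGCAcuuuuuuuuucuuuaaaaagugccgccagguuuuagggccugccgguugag
In the RefSeq gene table of that assembly 7 hairpin genes of the cluster, Mir290 to Mir295-1, lie within 2163 bases and inside the span of Nlrp12, a gene of the NLR family of innate immune proteins. An eighth hairpin, Mir295-2, lies elsewhere on the chromosome and gives the same miR-295-5p sequence. The table places miR-295-3p only in that distant hairpin, at chr1:82352201-82352222 on the plus strand, so it is counted with the cluster by its name and not by its place. Exon and intron boundaries at these positions were not analysed here.

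Each probe of the cluster pairs with a stretch that ends at the 3′ end of its miRNA. The probes of miR-290 are shown because all of the cluster's signal came from them; the capitals mark their run of C bases, which faces the run of G bases in miR-290.
15-base probe: tgCCCCCatagtttg
16-base probe: tgCCCCCatagtttga
The shorter probe is complementary to bases 4 to 18 of miR-290 and the longer to bases 3 to 18. The shorter lies within the longer, so the values of the probes are not independent of each other. The annotated rat miR-290 has 18 bases, against a median length of 22 bases over the 693 mature rat miRNAs of the table, and 3.32% of them are of 18 bases or fewer. The array design gives positions on rn4 for 8 of the 28 probes of the cluster, those of miR-293 and miR-295, and none for the probes of miR-290.

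Over the arrays, 154 to 180 of the 719 rat miRNAs were well above background, meaning that the scanner software said so for more than 50% of the spots of at least 1 of their probes. On all 6 arrays 152 of the 719 (21.1%) passed this call, and 182 (25.3%) passed on at least 1 array. The 3 control arrays shared a slide and the 3 IL-8 arrays shared a different one, so the slide and the treatment cannot be told apart. The muscle label was checked against 14 mature forms of 7 striated muscle miRNAs, miR-1 and miR-206 among them, and none was well above background on any array. Of 10 mature forms of the fibroblast and smooth muscle miRNAs miR-143, miR-145, miR-199a, miR-214 and miR-21, 8 were well above background on all arrays. The miRNAs of the miR-302 and miR-367 cluster, the other main miRNA group of pluripotent cells, were not analysed here, since 0 of the 5 names searched matched a probe. None of 8 blood, 2 endothelial or 10 epithelial forms was well above background on any array, and of 7 neural forms miR-128-3p alone was, on all 6.

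Of the cluster's 11 members, miR-290 alone was well above background, and it was so on all 6 arrays. All of its 120 spots, 10 for each probe on each array, were called well above background. The processed signal of a spot is its fluorescence on a linear scale after the scanner software had removed the background. The 15-base probe of miR-290 gave 130.2, 147 and 136 on control replicates 1, 2 and 3. With IL-8 it gave 141, 139 and 133. The 16-base probe gave 128, 144 and 137 in control and 138, 135 and 134 with IL-8. On each array the values of both probes lay close together. Control replicate 2 was the highest array and control replicate 1 the lowest for both probes. Within an array the spots of a probe varied little, with a coefficient of variation between 1.42% and 5.04% over kept spots. These values are far above the background of the same arrays, where the 95th percentile of 434 negative control spots ran from 7.92 to 11.9 and the lowest probe called well above background from 12.3 to 17.1. The software's own summary, the total gene signal, called miR-290 detected on all 6 arrays, at 174, 196 and 186 in control and 190, 188 and 184 with IL-8.

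**Figure D1:**
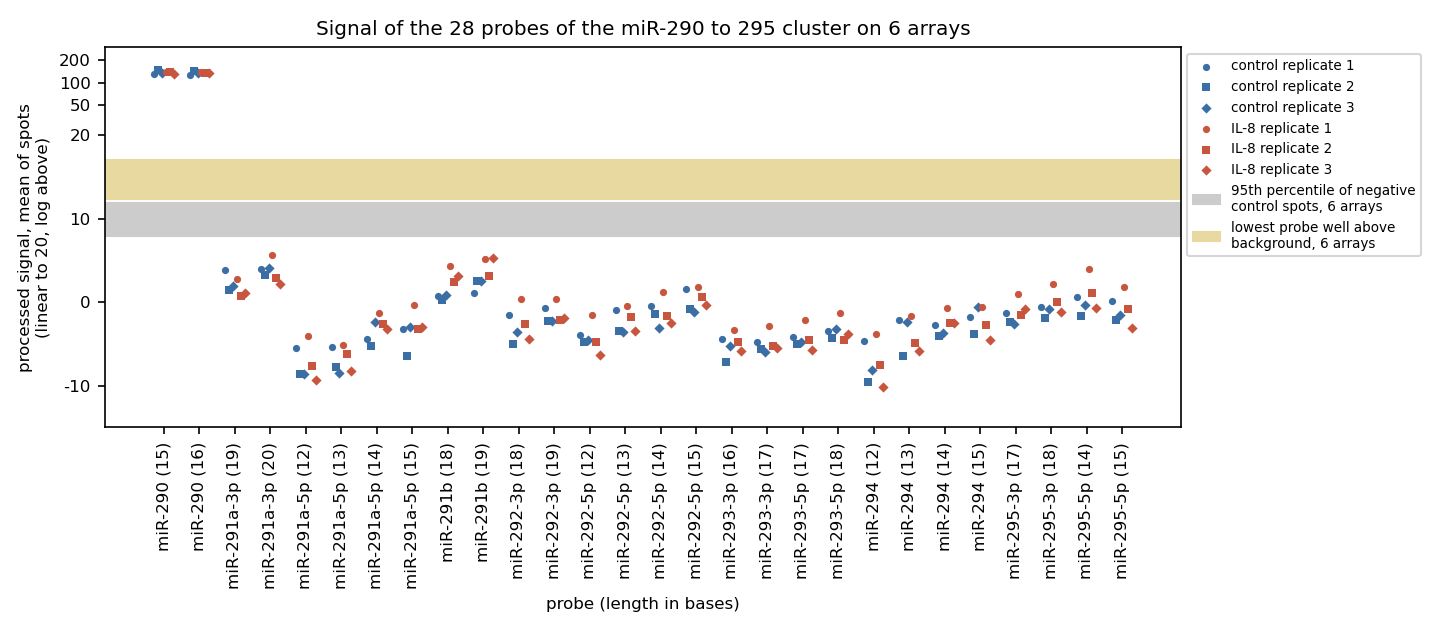
Processed signal (mean of spots, linear up to 20 and logarithmic above) of the 28 probes of the cluster, each marked with its length in bases, on 3 control arrays (blue) and 3 IL-8 arrays (red). The grey and yellow bands give the range over the 6 arrays of the 95th percentile of negative control spots (7.92 to 11.9) and of the lowest probe well above background (12.3 to 17.1); both miR-290 probes lie between 128 and 147, and the other 26 probes between -10.2 and 5.64.

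The other 10 members, measured by 26 probes, were not well above background on any array. None of their 156 probe values exceeded the 95th percentile of the negative control spots of the same array. The values ran from -10.2 to 5.64, and 119 of the 156 were below 0, the background having been subtracted. Among their 1200 single spots, 2 were called well above background and 7 (0.583%) lay above the negative control percentile. The 2 spots belonged to miR-291b and miR-295-5p, 1 spot each, and in both cases the other spots of the probe on that array were not called. For these 10 miRNAs no change with IL-8 could be measured. The values do not show that the miRNAs were missing from the cells, only that no signal was detectable on these arrays.

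Among the 5p arms, miR-292-5p and miR-293-5p carry the seed of miR-290. The 4 probes of miR-292-5p ranged from -6.33 to 1.80 and the 2 probes of miR-293-5p from -5.74 to -1.34. Neither miRNA had a spot called well above background among its 120. The probes of miR-295-5p ranged from -3.15 to 3.97. Those of miR-291a-5p ranged from -9.39 to -0.290, and those of miR-294, from the hairpin that in mouse gives one of the best known pluripotency miRNAs, from -10.2 to -0.529. The 5p arm nearest to miR-290 in sequence thus gave values on both sides of 0, and 3 of these 5 neighbours had only negative values.

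Among the 3p arms, miR-291a-3p and miR-291b carry the seeds AAGUGCU and AAGUGCA and are the cluster's arms closest to the cell cycle miRNAs of pluripotent cells. The probes of miR-291a-3p ranged from 0.747 to 5.64, the highest value of any neighbour, on IL-8 replicate 1. The 18-base probe of miR-291b ranged from 0.301 to 0.877 on the control arrays and from 2.43 to 4.34 on the IL-8 arrays. Its 19-base probe ranged from 1.12 to 2.54 and from 3.12 to 5.30. All of these stayed below the negative control percentile of their arrays, so no order between the groups is read from them. miR-292-3p ranged from -5.04 to 0.394, miR-293-3p from -7.12 to -2.82 and miR-295-3p from -2.67 to 2.13. miR-292-3p comes from the same hairpin as miR-292-5p, and neither arm was detected. The same held for both arms of miR-291a, miR-293 and miR-295.

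The level of the 26 neighbouring probes differed a little from array to array. Their median was -1.67, -3.97 and -2.83 on control replicates 1, 2 and 3 and -0.405, -2.53 and -3.17 on the IL-8 arrays. The groups overlapped in this measure. Taken singly, 22 of the 26 probes had a higher mean on the IL-8 arrays, and 3 were higher on every IL-8 array than on any control array. All 26 probes stayed at values within the background, so no difference between the groups is read from them. The negative control spots had medians of 3.65, 3.12 and 4.83 in control and 4.58, 4.14 and 6.03 with IL-8, above the median of the neighbours on every array.

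The IL-8 comparison could be made for miR-290 alone. Its signal was nearly the same in both groups, with a mean over both probes of 137 ± 8.16 (SD, n = 3) in control and 137 ± 3.05 (SD, n = 3) with IL-8. The arrays as a whole were brighter with IL-8. The 75th percentile of signal over the 264 probes that passed the detection call everywhere, by which each array was scaled, was 440.1, 475 and 497 in control and 569, 549 and 540 with IL-8. After scaling, the level is a log2 ratio of the probe's signal to that percentile. It was -1.77, -1.71 and -1.86 on the control arrays and -2.03, -2.00 and -2.01 on the IL-8 arrays. Every IL-8 array was lower than every control array, and the control arrays spread more. The group means were -1.78 ± 0.08 (SD, n = 3) and -2.01 ± 0.01 (SD, n = 3), a log2 difference (IL-8 minus control) of -0.24 ± 0.06 (SE) or 0.850-fold. The 15-base probe differed by -0.23 and the 16-base probe by -0.24 on the log2 scale.

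The difference depended on the scaling. Without scaling the log2 difference of miR-290 was -0.0024 ± 0.09 (SE), and the groups overlapped. Scaled by 8 probes for spike-in RNAs, it was -0.03 ± 0.12 (SE), again with overlap. In these settings the median over all tested miRNAs was 0.24 and 0.22, against 0.02 with the scaling used here. Relative to that median miR-290 lay lower in each of the 3 settings. All 3 divide an array by a single number, which moves its miRNAs nearly alike, so these are not 3 separate results. The means of the unscaled miR-290 signal differed by less than the spread between arrays. On the log2 scale the 15-base probe differed by 0.0022 and the 16-base probe by -0.0070 before scaling. By arithmetic, nearly all of the scaled difference thus came from the percentile by which each array was divided. The array brightness moved with the group and with the slide, which cannot be told apart. What made the IL-8 arrays brighter was not tested.

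**Figure D2:**
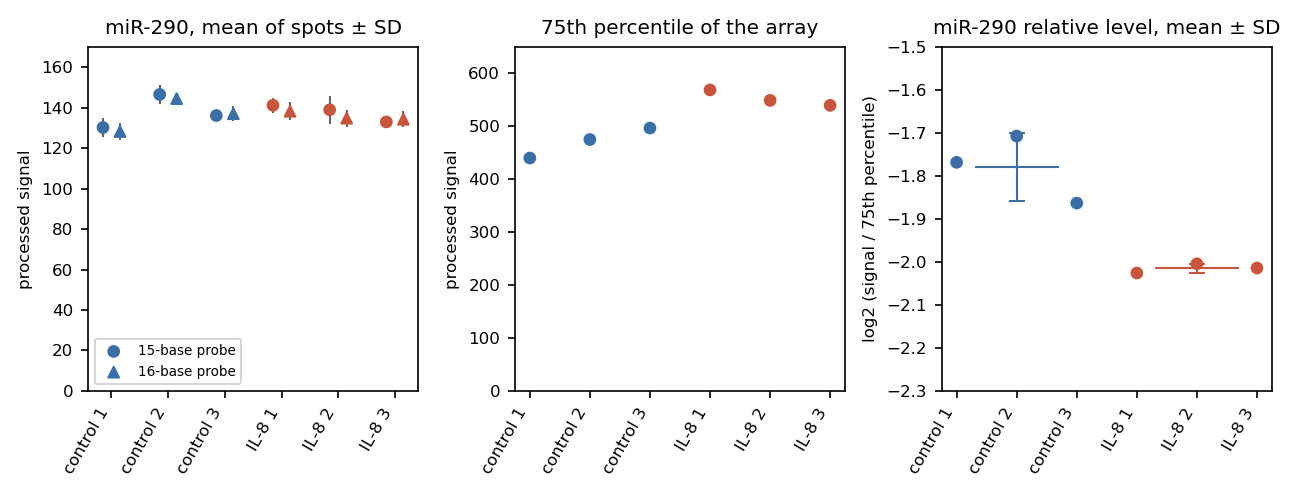
Left, processed signal of both miR-290 probes on each array (mean ± SD of the kept spots); middle, the 75th percentile of signal by which the array was scaled; right, the log2 level of miR-290 relative to that percentile, with the mean ± SD of each group of 3 arrays. The signal of miR-290 lies between 128 and 147 in both groups, the percentile is higher on all 3 IL-8 arrays, and the relative level is lower on all 3.

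The fit over all tested miRNAs shows what is common in this comparison. By limma with Benjamini-Hochberg adjustment, 10 of 167 tested miRNAs (5.99%) passed an adjusted p of 0.05, 5 lower (2.99%) and 5 higher (2.99%) with IL-8. Of the cluster, 1 of 11 members, miR-290, had signal enough to enter this fit. In 50 of the 167 (29.9%) the groups did not overlap, 23 of them lower with IL-8, and miR-290 was 1 of these. The differences of 13 of the 167 lay below that of miR-290, and 23 were larger in size. From these shares nothing is read about the cluster. The count of calls depended on single arrays: it was 29 when control replicate 3 was left out and 5 when control replicate 2 was. Leaving out IL-8 replicate 1 gave 3 calls, and leaving out IL-8 replicate 2 or 3 gave 1 each. The difference of miR-290 ran from -0.27 to -0.19 when each array was left out in turn. Its groups did not overlap then either, which nearly follows from the full set and adds no support.

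**Figure D3:**
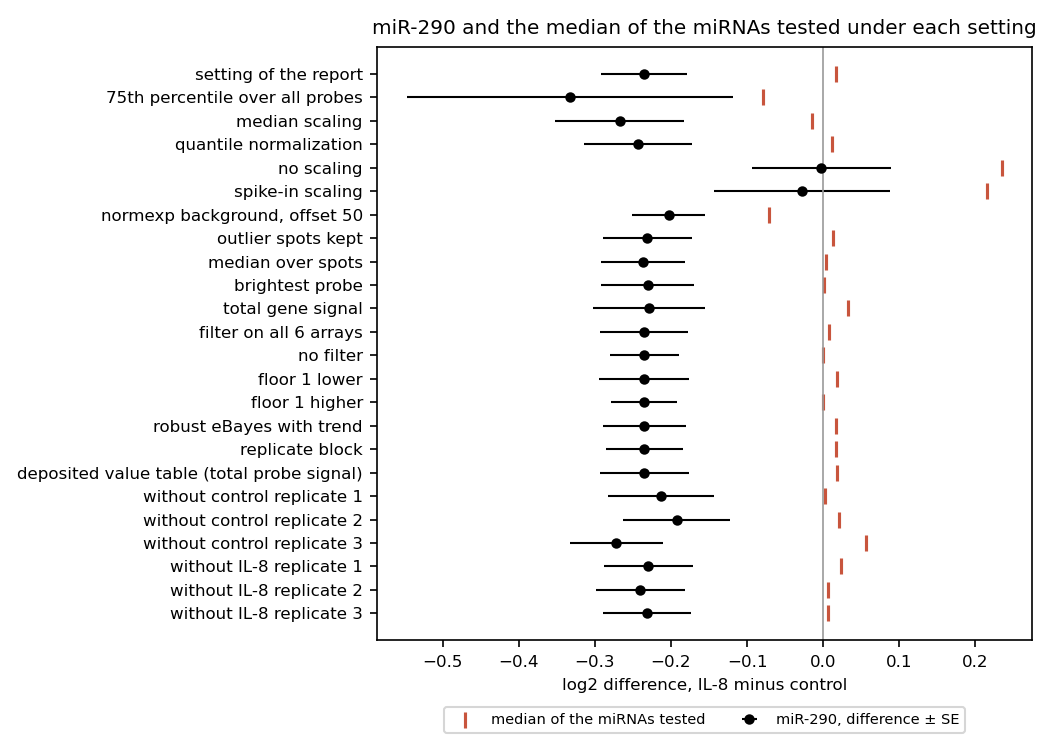
Log2 difference (IL-8 minus control) of miR-290 with its SE (black) and the median over all tested miRNAs (red) under the setting of the report and 23 others. miR-290 lies between -0.33 and -0.19 in all but no scaling (-0.0024) and spike-in scaling (-0.03), where the median of all miRNAs is itself at 0.24 and 0.22.

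The part of miR-290 that its probes read was compared with the other 692 mature rat miRNAs of the RefSeq table. The longest unbroken stretch that any of them shared with these 16 bases was 7 bases, and 6 miRNAs reached it. These were miR-292-5p and miR-293-5p of the cluster (UCAAACU), miR-326-5p (GGGGGCA), miR-3596b (AACUAUG), miR-379-5p (ACUAUGG) and miR-99a-3p (CUAUGGG). Only miR-379-5p and miR-99a-3p were well above background, on all 6 arrays, by their own probes. Their log2 differences were 0.21 ± 0.06 (SE) and 0.04 ± 0.07 (SE). Laid side by side without gaps, miR-292-5p matched most, at 11 of the 16 bases, and was itself not well above background. A further 9 miRNAs matched at 10 bases, and 4 of these were well above background on all 6 arrays: miR-181c-5p, miR-193a-5p, miR-551b-5p and miR-3593-3p. Their log2 differences were 0.19 ± 0.08, 0.12 ± 0.10, 0.43 ± 0.08 and -0.15 ± 0.06 (SE). Another of the 9, miR-125b-2-3p, was so on 3 arrays. Whether any of these miRNAs bound the miR-290 probes was not tested. RNAs other than annotated miRNAs were not searched here.

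The run of GGGGG in miR-290 occurs in 10 of 693 mature rat miRNAs (1.44%), searched on the printed strand. Of these, 9 are on the array, and 4 of the 9 were well above background on all 6 arrays. The array holds probes with the facing run of CCCCC for 7 miRNAs, and 4 of these were well above background on all 6 arrays, against 21.1% of all miRNAs. They were miR-290, miR-211-3p, miR-3593-3p and miR-652-5p. The others were miR-292-5p, miR-150-3p and miR-181d-3p, which were not well above background on any array. miR-292-5p has the seed of miR-290 and a run of G bases as well, and gave no detectable signal. Its longest probe pairs with bases 8 to 22, which leaves out most of the seed, and its shortest probe lacks the run of CCCCC. What the seed or the run does to the array signal was not tested. miR-290 is in each of these counts, and the cluster was selected on its detection, so its own pass was fixed in advance. These counts were also made after the values had been seen, and 9 or 7 miRNAs are few. Nothing is therefore read from the counts against 21.1%.

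The 3p arms of the cluster have relatives elsewhere in the genome with a seed that holds AAGUGC, and these were measured as the nearest functional kin. Of 6 such rat miRNAs on the array, 5 were well above background on all 6 arrays: miR-17-5p, miR-20a-5p, miR-20b-5p, miR-93-5p and miR-106b-5p, members of the miR-17 cluster and its paralogs, which favour cell cycle entry. The sixth, miR-105, has the same seed AAGUGCU as miR-291a-3p and was not well above background on any array. miR-17-5p is printed with its seed in capitals, for comparison with miR-291a-3p above.
rno-miR-17-5p: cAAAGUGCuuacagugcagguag
miR-20a-5p had log2 levels of -2.72, -2.59 and -2.55 in control and -2.70, -2.54 and -2.57 with IL-8. The groups overlapped for it and for the other 4. The log2 differences of the 5 ran from -0.02 for miR-93-5p to 0.08 for miR-17-5p, with a median of 0.03 against 0.02 over all tested miRNAs. None of the 5 passed, with limma adjusted p from 0.578 to 0.928. Over all miRNAs the same limma fit called 10 of 167 (5.99%) at this threshold, so 0 of 5 is near the overall share and nothing is read from it. At an unadjusted p under 0.05, 0 of the 5 and 41 of the 167 passed.

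Over the 6 arrays the miRNAs whose scaled log2 levels, each centred on its own mean, lay nearest to those of miR-290 were miR-222-3p, miR-3593-3p and miR-484, of 166 compared. Their root mean square differences from miR-290 were 0.0519, 0.0657 and 0.0679 on the log2 scale, and the median over the 166 was 0.167. miR-222-3p, a repressor of the cell cycle inhibitor p27, went from -1.61 ± 0.08 in control to -1.78 ± 0.07 with IL-8 (SD, n = 3 each). miR-3593-3p went from -3.76 ± 0.07 to -3.91 ± 0.05, and miR-484 from -4.40 ± 0.05 to -4.58 ± 0.04 (SD, n = 3 each). They were chosen for this likeness, so no test is given. All were somewhat lower on the IL-8 arrays after scaling, as miR-290 was, and all share the scaling of each array.

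**Figure D4:**
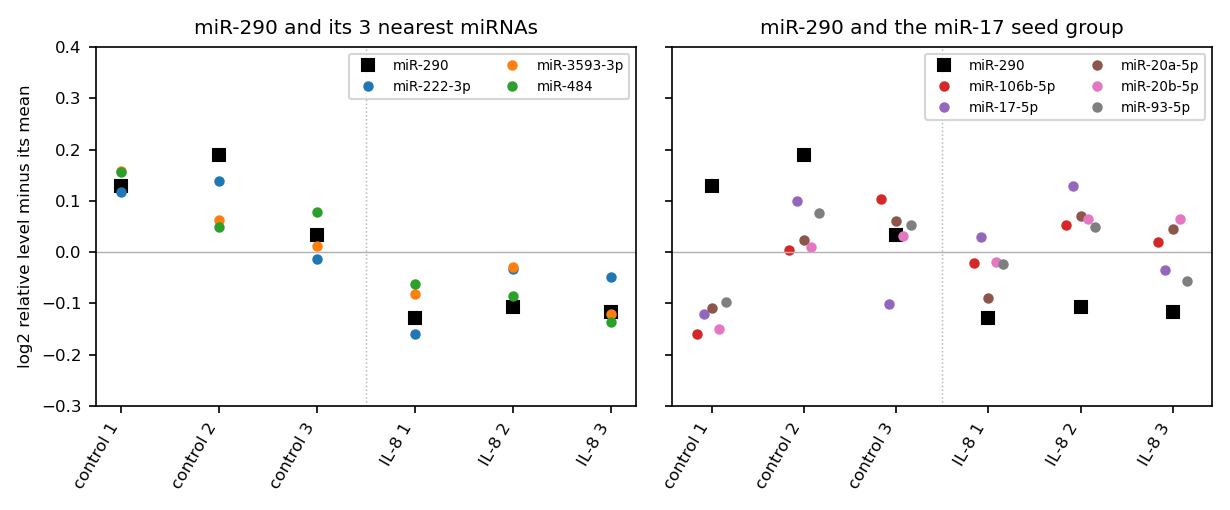
Scaled log2 level of each miRNA minus its own mean, on 3 control and 3 IL-8 arrays. Left, miR-290 (black squares) with the 3 nearest of 166 miRNAs; right, miR-290 with the 5 detected miRNAs whose seed is of the miR-17 type, whose control and IL-8 arrays overlap, while miR-290 is below 0 on all 3 IL-8 arrays.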

How the data were processed

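The deposited array files hold fluorescence intensities per spot on a linear scale, which Agilent Feature Extraction 10.10.1.1 had corrected for background but not normalized between arrays, per the file headers. The deposited value table equalled the software's total probe signal for all 15095 values per array within a relative tolerance of 0.0001; it is linear, not centred and has no direction to settle, with column medians of -0.529, -1.35 and -1.17 (control) and 0.307, -0.802 and -1.18 (IL-8). Spots called outliers were left out, the rest averaged per probe, divided by the array's 75th percentile over 264 probes well above background on all arrays, floored at a log2 level of -5.04 and log2 taken. Tested miRNAs had a probe well above background on every array of at least 1 group, and such probes were averaged. limma 3.58.1 in R 4.3.3 compared IL-8 with control with Benjamini-Hochberg adjustment; the script was tested on simulated data. Sequences came from RefSeq, which matched 651 of 719 names on the array. The miRNAs named were all members, the 3 nearest to miR-290, the detected ones of related seed and markers of cell types; the members and lists were chosen with earlier results of these data known. No rat miRNA spot was saturated, with 0 on each array. The number of arrays limits the precision, and p-values reflect the spread of these samples alone, possibly technical.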

Additional observations from a re-analysis of the deposited data

How the results depend on the processing

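The number of cluster members well above background was 1 under 11 of 12 alternatives and 3 when a single spot called well above background was enough. The log2 difference of miR-290 was below 0 under all 23 alternatives, but their number is no measure of support. The filters, floor shifts, robust limma fit and replicate block left the difference unchanged. They could not move it, which adds no support. miR-290 passed on all arrays and lay far above the floor, and the robust fit and the block change only its SE. It moved by more than the spread between arrays to -0.33 with the 75th percentile over all probes, -0.0024 without scaling and -0.028 with spike-in scaling. Without scaling and with spike-in scaling it lay within its SE of 0. With each array left out it ran from -0.27 to -0.19. The count of calls over all miRNAs was 17 with quantile normalization (8 up, 9 down), 51 without scaling (50 up, 1 down), 34 with spike-in scaling (all up), 24 with the normexp background (1 up, 23 down), 19 with total gene signal (14 up, 5 down) and 1 with no filter. limma called 0 with the 75th percentile over all probes (9 at unadjusted p under 0.05) and 0 with the floor 1 log2 unit higher (30 at unadjusted p under 0.05). With each array left out it ran from 1 to 29. The causes of these changes were not tested. With the replicate number of the titles as a block (replicate block) 8 miRNAs were called and the difference of miR-290 was -0.24. The deviations of same-numbered arrays correlated at 0.287, 0.330 and 0.0854. Control replicates 1 and 2 correlated best with the IL-8 array of their number, and control replicate 3 with IL-8 replicate 1 (0.0986). These values cannot settle whether the samples were paired. The deposited value table, an alternative chosen after seeing the data, gave 13 calls and -0.24. Signal near background limits the other 10 members.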

Other observations

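The 3 detected miRNAs besides miR-290 whose probes hold a run of CCCCC gave these scaled log2 levels. They are shown with the run of G bases of each miRNA in capitals.
rno-miR-211-3p: ggcaaggacagcaaaGGGGG
rno-miR-3593-3p: cuucaaccuuaaGGGGGccuca
rno-miR-652-5p: acaacccuaggaGGGGGugccau
miR-211-3p stood at -4.44 ± 0.09 (SD, n = 3) in control and -4.74 ± 0.22 (SD, n = 3) with IL-8, without overlap of the groups. miR-3593-3p stood at -3.76 ± 0.07 and -3.91 ± 0.05, also without overlap. miR-652-5p stood at 0.07 ± 0.11 and 0.05 ± 0.11, and its groups overlapped. The set was put together after the values had been seen, no test of it was made, and a run of G bases is shared by miRNAs on both sides of the detection limit.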
